A study of Mus musculus with 2 samples.

Results

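A set of 10 genes of hepatic stellate cells and of the fibrous matrix was followed by RNA-seq in liver of CD-1 mice, an outbred laboratory stock. The members were Dcn, Lrat, Reln, Des, Hand2, Rgs5, Col1a1, Col1a2, Col3a1 and Timp1, taken from a given list by an exact match to the gene name in the deposited tables. They are 10 of 37146 gene identifiers in these tables, and each name matched 1 identifier. The NP group received titanium dioxide nanoparticles by mouth at 50 mg per kg body weight per day, from a suspension stirred with ultrasound for 30 min, and the Control group received the same volume of phosphate-buffered saline. Each group was represented by 1 library of liver. The number, sex and age of the mice behind a library and the length of treatment are not in the labels. A replicate check was lacking for every difference, so every statement below describes these libraries and not the treatment.

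Stellate cells lie between the hepatocytes and the endothelium of the liver sinusoids and store vitamin A as retinyl esters in lipid droplets. In liver injury they can turn into contractile myofibroblasts, which deposit fibrillar collagen and secrete inhibitors of the proteases that degrade it. They are a minority of liver cells, so their transcripts are diluted by those of hepatocytes in whole-tissue RNA. In such bulk samples, fewer stellate cells and less RNA per cell cannot be told apart.

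Levels are given as FPKM (fragments per length of transcript and per mapped fragments), summed over all rows of a gene. The range after a value is the 95% interval of the estimate, which covers uncertainty within a library and no spread between animals. For each unit of FPKM, read coverage stood at 2.29 in Control and 2.92 in NP, which makes NP the deeper library. The hepatocyte gene Alb was at 21660 FPKM in Control and 30741 in NP, as the tissue label implies. Of the 10 members, 9 were above 0 in both libraries and Timp1 was listed at 0 in both. A mean of at least 1 FPKM was required for a gene to be counted as tested, and 10533 genes met it. Lrat, with a mean of 1.34 FPKM, was the lowest of the 6 members that passed, and Col1a2, with a mean of 0.925, was the highest of the 4 that did not.

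Among the genes that mark stellate cells, Lrat, Rgs5 and Dcn were lower in NP with intervals that did not meet, while Reln, Des and Hand2 had overlapping intervals. Lrat encodes lecithin retinol acyltransferase, the enzyme that makes the retinyl esters stored in stellate cells. It spans chromosome 3 from 82696501 to 82707895 in the mm9 build of the files. Lrat was at 1.78 FPKM (1.39 to 2.17) in Control and 0.902 FPKM (0.641 to 1.16) in NP, 1.97-fold lower in NP. This was the greatest fold difference in FPKM among the 9 members above 0. Its span lies within that of 4930564K09Rik, which was at 0.0205 and 0.0143 FPKM. All of its FPKM lay in 1 transcript row, so no division of reads between isoforms entered the value. The sequence behind these values was small, at 22.7 kb of aligned bases (coverage times row length) in Control and 13.97 kb in NP.

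Rgs5, a regulator of G protein signalling typical of pericytes and stellate cells (chromosome 1, 171585632 to 171625944), measured 12.4 FPKM (11.1 to 13.6) in Control and 8.99 FPKM (7.99 to 9.98) in NP. The NP value was 1.38-fold lower. A single transcript row held all of it in both libraries, as for Lrat, and it was much better covered, at 112.9 kb and 103.5 kb of aligned bases.

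Dcn encodes decorin, a small proteoglycan that binds collagen fibrils, and was the most abundant member in both libraries. It lies on chromosome 10 from 96942245 to 96980777. Its summed level was 70.8 FPKM (65.6 to 76.1) in Control and 57.7 FPKM (53.1 to 62.4) in NP, 1.23-fold lower. The row for the transcript of 1740 nt was at 70.8 FPKM in Control and 48.3 FPKM (44.1 to 52.4) in NP. The row of 1758 nt was listed at 0 in Control, with an upper limit of 0.130, and at 9.45 FPKM (7.41 to 11.5) in NP. In NP it made up 16.4% of the gene. GENCODE M21 lists both transcripts with the same coding sequence, and the second carries the tag of an alternative 5′ untranslated region. The gene-level ratio therefore differed from that of the main row, which was 1.47-fold lower in NP.

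Reln encodes reelin, a large secreted glycoprotein that stellate cells make in the liver. It spans chromosome 5 from 21390272 to 21850523. Its summed level was 13.8 FPKM (11.0 to 16.5) in Control and 12.02 FPKM (9.65 to 14.4) in NP, with overlapping intervals. Most of this sum came from a row of 891 nt, which GENCODE M21 lists as a processed transcript with no coding sequence. That row was at 10.2 FPKM (7.51 to 12.9) and 7.86 FPKM (5.598 to 10.1), or 74.0% and 65.4% of the gene. The 3 rows longer than 10 kb, of 10885, 11699 and 11702 nt, were each lower in NP, by 1.46-fold, 1.53-fold and 1.504-fold, and each pair of intervals overlapped. Their sum was 3.57 FPKM (3.09 to 4.04) in Control and 2.37 FPKM (2.02 to 2.73) in NP, 1.504-fold lower, with intervals that did not meet. This sum was chosen after the values were seen, and it leaves out the covariance between 3 rows that share most of their sequence. A row of 2775 nt, listed by GENCODE M21 as a retained intron, was at 0 in Control (upper limit 0.0792) and at 1.78 FPKM (1.15 to 2.41) in NP. Summing all rows therefore held Reln closer to its Control level than the long transcripts alone. The long rows put Reln below Rgs5 in both libraries, whereas the sum of all rows put it above.

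Des encodes desmin, an intermediate filament protein of muscle and of rodent stellate cells (chromosome 1, 75356904 to 75365154). It was at 0.932 FPKM (0.555 to 1.31) in Control and 0.573 FPKM (0.300 to 0.847) in NP. The point value was 1.63-fold lower in NP, but the intervals overlapped and the gene was under the filter. Of the 2048 genes averaging between 0.25 and 1 FPKM and above 0 in both libraries, 4.93% had an NP interval wholly below and 30.2% were at least 1.5-fold lower in NP by plain FPKM, so a ratio of this size was common at this level.

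Hand2, a basic helix-loop-helix transcription factor restricted in the liver to the stellate lineage (chromosome 8, 59799780 to 59803314), showed no lower value. It was at 2.29 FPKM (1.56 to 3.02) in Control and 2.52 FPKM (1.83 to 3.21) in NP, with overlapping intervals. Its transcript row alone was at 1.96 FPKM (1.27 to 2.64) and 2.52 FPKM (1.83 to 3.21), so the remainder in Control, 0.332 FPKM, lay in the row that spans the whole gene. Hand2 and Lrat had overlapping intervals in Control, and in NP the interval of Hand2 lay wholly above that of Lrat.

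**Figure D1:**
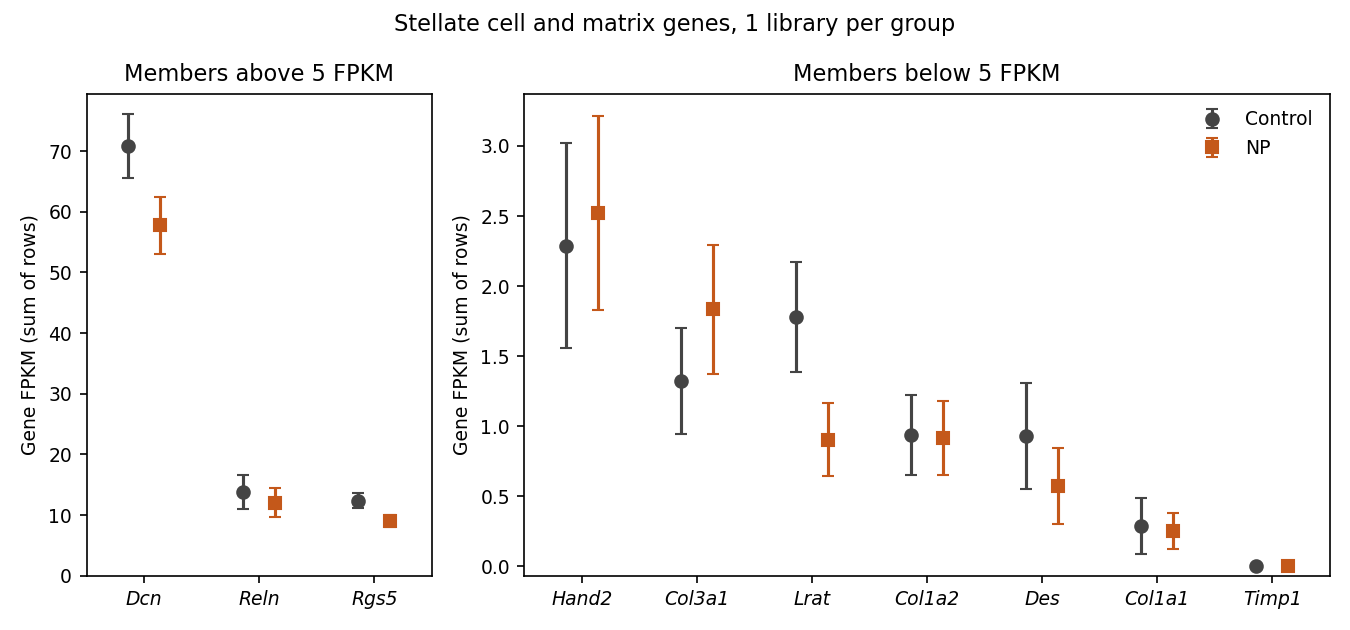
Gene FPKM of the 10 members in Control (circles) and NP (squares), with members above 5 FPKM on the left and the others on the right, each panel on its own linear axis. Bars are the 95% intervals of the estimate within a library, and Timp1 is drawn at 0 without an interval. The bars of Dcn, Rgs5 and Lrat do not meet between libraries, and those of the other 6 members above 0 do.

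The sequences before the annotated starts of Lrat, Rgs5, Hand2 and Col3a1 are shown because the first pair was lower in NP with separate intervals and the second pair had overlapping intervals. They are RefSeq sequences of build GRCm38.p6, the 250 bases 5′ of the start on the strand of the gene, whereas the FPKM values rest on mm9 models. Of the 10 members, 8 had an entry, and Dcn and Col1a1 did not. Capitals mark matches, on either strand, to the TATA box TATAAA, the CCAAT box, the GC box GGGCGG and the E-box CACGTG, so a match on the other strand reads as the reverse complement. None of the marked matches overlap each other. The Lrat sequence is chr3:82903975-82904224 (minus strand), Rgs5 chr1:169655251-169655500 (plus), Hand2 chr8:57320733-57320982 (plus) and Col3a1 chr1:45311288-45311537 (plus).
Lrat: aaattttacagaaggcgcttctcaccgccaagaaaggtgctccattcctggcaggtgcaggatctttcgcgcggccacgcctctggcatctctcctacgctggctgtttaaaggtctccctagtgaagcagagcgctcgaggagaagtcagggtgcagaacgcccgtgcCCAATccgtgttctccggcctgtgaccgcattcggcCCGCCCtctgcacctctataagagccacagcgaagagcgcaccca
Rgs5: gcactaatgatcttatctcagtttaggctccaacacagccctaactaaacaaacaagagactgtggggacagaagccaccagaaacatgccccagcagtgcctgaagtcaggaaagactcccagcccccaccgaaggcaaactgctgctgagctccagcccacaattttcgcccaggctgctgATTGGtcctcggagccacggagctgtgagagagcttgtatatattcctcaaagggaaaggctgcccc
Hand2: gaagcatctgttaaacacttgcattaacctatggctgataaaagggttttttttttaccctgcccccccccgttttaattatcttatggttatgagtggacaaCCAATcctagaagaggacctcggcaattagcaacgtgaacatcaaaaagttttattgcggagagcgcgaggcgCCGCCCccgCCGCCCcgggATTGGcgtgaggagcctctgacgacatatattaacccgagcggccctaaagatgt
Col3a1: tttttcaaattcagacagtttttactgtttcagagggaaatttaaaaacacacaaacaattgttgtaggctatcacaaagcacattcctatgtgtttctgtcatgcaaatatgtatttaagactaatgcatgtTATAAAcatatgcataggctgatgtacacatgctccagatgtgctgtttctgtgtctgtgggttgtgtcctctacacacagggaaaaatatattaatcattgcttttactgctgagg
CCAAT was found in Lrat from 81 to 77 bases before the start and in Rgs5 from 67 to 63 on the other strand. Hand2 held 2 matches, from 147 to 143 bases and, on the other strand, from 55 to 51. GGGCGG was found on the other strand of Lrat, from 45 to 40 bases, and of Hand2, from 74 to 69 and from 65 to 60. Col3a1 held only TATAAA, from 117 to 112 bases, and CACGTG was in none of the 4. Of all 32851 RefSeq windows of this length, 33.8% held the CCAAT box, 32.7% the GC box, 12.4% the TATA box and 6.02% the E-box. The CCAAT box was in the windows of Lrat and Rgs5 and also in that of Hand2. Base composition differed widely, with 59.2% G and C before Lrat, 53.6% before Rgs5, 49.2% before Hand2 and 35.2% before Col3a1.

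The fibrillar collagens were near the lower end of what these libraries measured, and none differed beyond its interval. Col1a1 and Col1a2 encode the chains of type I collagen, the main fibre of scar tissue, and Col3a1 encodes type III collagen, which is laid down with it. Col1a1 (chromosome 11, 94797538 to 94814356) measured 0.284 FPKM (0.0900 to 0.488) in Control and 0.252 FPKM (0.122 to 0.382) in NP. These values rest on 2.74 kb and 4.11 kb of aligned bases in all. Col1a2 (chromosome 6, 4454814 to 4491543) measured 0.936 FPKM (0.651 to 1.22) and 0.914 FPKM (0.648 to 1.18), from 1 transcript row. Col1a2 thus stood above Col1a1 in both libraries, by 3.29-fold in Control and 3.62-fold in NP, and the intervals of the pair did not meet in either.

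Col3a1 (chromosome 1, 45368383 to 45406551) measured 1.32 FPKM (0.943 to 1.70) in Control and 1.83 FPKM (1.37 to 2.30) in NP, with overlapping intervals. Its transcript rows went in opposite directions. The row of 5564 nt, which covers the whole gene, measured 1.11 FPKM (0.789 to 1.43) in Control and 0.581 FPKM (0.323 to 0.839) in NP. The row of 4628 nt, which starts within the gene, was at 0.214 FPKM (0.00989 to 0.417) and 1.25 FPKM (0.872 to 1.64). The longer row held 83.8% of the gene in Control and 31.6% in NP. The direction of Col3a1 therefore depended on the row: the sum was 1.39-fold higher in NP and the longer row 1.91-fold lower. Aligned bases over both rows, divided by the depth ratio of 1.28 between the libraries, were 1.36-fold higher in NP.

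Col1a1 also changed direction with the row. Its row of 5930 nt was at 0.133 FPKM (0.0109 to 0.256) in Control and 0.252 FPKM (0.122 to 0.382) in NP, while a row of 4065 nt held 0.151 FPKM in Control and 0 in NP. Neither gene is given a direction for this reason.

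Timp1 encodes a secreted inhibitor of matrix metalloproteinases that activated stellate cells and other cells produce. It occupies chromosome X from 20447292 to 20451861, lies within the span of Syn1 and was listed at 0 in both libraries, as was Syn1. For the transcript of 833 nt the upper limit was 0.249 FPKM in Control and 0.217 in NP, and for that of 883 nt it was 0.235 and 0.205. Expression below these limits was not detectable at this depth, and a listed 0 can also be a failed estimate.

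**Figure D2:**
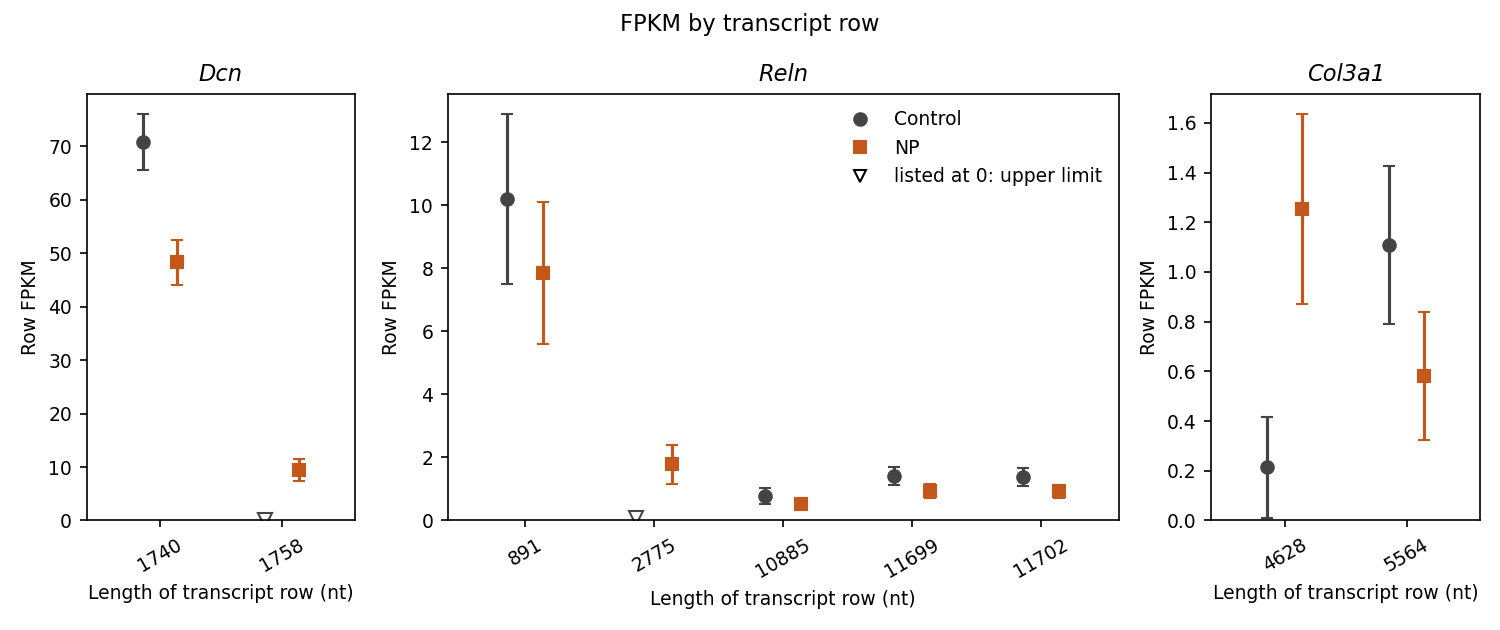
FPKM of each transcript row above 0 in at least 1 library for Dcn, Reln and Col3a1, by row length in nt, in Control (circles) and NP (squares) with 95% intervals of the estimate. Open triangles are the upper limits of rows listed at 0. The Dcn row of 1758 nt and the Reln row of 2775 nt are at 0 in Control only, and the Col3a1 rows of 4628 and 5564 nt differ in opposite directions.

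Counted over all 10 members, 3 had an NP interval wholly below the Control interval, 0 had one wholly above and 6 had overlapping intervals, with Timp1 at 0. Among the 10533 tested genes, 9.58% had an NP interval wholly below and 7.73% wholly above. Both shares include genes listed at 0 in 1 library, which were compared at 0 without an interval there. At the level of Dcn separate intervals were more common: of the 1368 genes that averaged 50 FPKM or more, 14.9% lay wholly below, and 3.07% were at least 1.5-fold lower by plain FPKM. For Lrat the matching share was 6.19% of the 3650 genes between 1 and 5 FPKM, and for Rgs5 it was 9.76% of the 5418 genes between 5 and 50 FPKM, of which 4.36% were at least 1.5-fold lower. These shares by level are over genes above 0 in both libraries. Dcn, Lrat and Rgs5 were also the 3 members with separate intervals with transcript rows only and with the highest row of each gene. The same held with bounds of rows added up and under both scalings of NP. Lrat and Rgs5 each had 1 row above 0, so no choice of rows could change their values. Dcn was the same with transcript rows only, as the row that spans the whole gene was at 0. With the highest row, Dcn lost FPKM in NP only, so that choice could only lower its NP value.

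On the scale of log2((NP + 1)/(Control + 1)), where ratios of low genes come out smaller, 0 of the 6 tested members passed 1.5-fold upwards and 0 downwards. The background was 3.6% higher and 5.33% lower. Lrat was the nearest to the size rule, at -0.55, followed by Rgs5 at -0.42, Dcn at -0.29 and Reln at -0.18. Hand2 was at 0.10 and Col3a1 at 0.29. By plain FPKM, where 7.42% of tested genes above 0 in both libraries were at least 1.5-fold lower and 4.92% higher, Lrat was the 1 tested member past 1.5-fold. At its level, between 1 and 5 FPKM, 13.6% of genes were at least 1.5-fold lower, and the share as low as Lrat was not counted. The median log2 ratio was -0.24 over the 6 tested members and -0.18 over the 9 above 0, against -0.03 over all tested genes. These medians are descriptions only, as is the count of ratios.

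**Figure D3:**
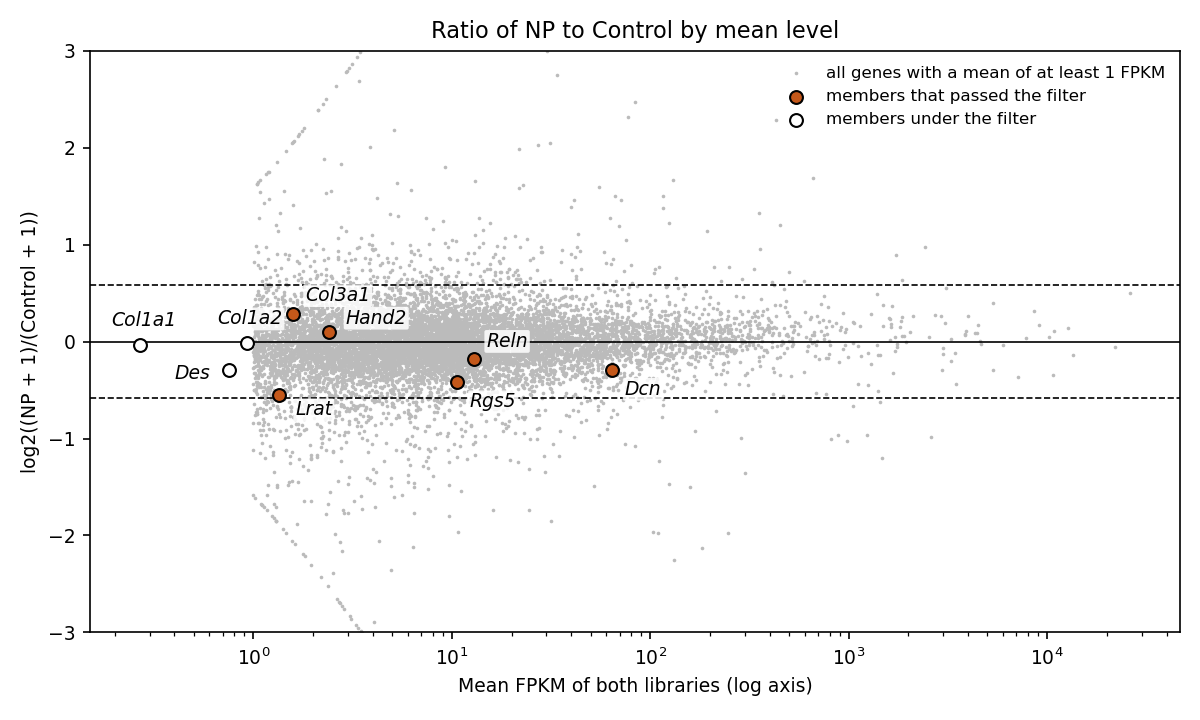
Ratio of NP to Control on the log2(FPKM + 1) scale against the mean FPKM of both libraries (log axis), for all tested genes (grey), members that passed the filter (filled) and members under it (open). Dashed lines mark 1.5-fold, and 43 genes beyond 3 in log2 lie outside the frame. The members above 0 lie inside the dashed lines, with Lrat next to the lower one.

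The order of levels within a library changed around Lrat. In Control the members followed the order Dcn, Reln, Rgs5, Hand2, Lrat, Col3a1, Col1a2, Des and Col1a1. In NP Lrat stood below Col3a1, with intervals that did not meet, and below Col1a2, with overlapping intervals. The place of Col3a1 above Lrat rests on the sum of its rows. Its row of 5564 nt alone was at 0.581 FPKM (0.323 to 0.839) in NP, below Lrat, with overlapping intervals. Dcn stood apart from the rest in both libraries. Reln and Rgs5 did not differ beyond their intervals in either library. The intervals of Hand2, Lrat and Col3a1 all overlapped each other in Control, and Col1a2 and Des overlapped each other and Col3a1. FPKM of Dcn was 39.8 times that of Lrat in Control and 64.0 times in NP.

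Of 29 other genes of stellate cells and pericytes, 20 passed the filter, and 16 of these had a ratio below 0 and 4 above. Among all tested genes, 54.4% had a ratio below 0. The NP interval lay wholly below for 6, namely Pth1r, Vipr1, Bmp5, Colec10, Pdgfrb and Ecm1, and wholly above for 2, among them Steap4, beside 9.58% and 7.73% of all tested genes. On the log2(FPKM + 1) scale 1 was at least 1.5-fold higher and 1 lower, beside 3.6% and 5.33% of all tested genes. The median was -0.17. Pdgfrb, the receptor for platelet-derived growth factor that drives stellate cell division, was at 1.64 FPKM (1.27 to 2.01) in Control and 0.965 FPKM (0.698 to 1.23) in NP. Pth1r, the parathyroid hormone receptor, was at 3.61 FPKM (2.73 to 4.48) and 1.90 FPKM (1.31 to 2.49), and was the gene past 1.5-fold lower. Gfap, Cspg4 and Angptl6 were listed at 0 in both libraries.

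Genes of retinoid handling as a list did not share a direction. Of 18, 13 passed, of which 1 was at least 1.5-fold higher and 3 were lower, and the median was -0.13. The matching shares of all tested genes were 3.6% and 5.33%. The 3 lower genes were Cyp26a1, Cyp26b1 and Lpl. Cyp26a1 and Cyp26b1 encode the hydroxylases that clear retinoic acid. Cyp26a1 was at 6.78 FPKM (5.47 to 8.08) in Control and 2.30 FPKM (1.57 to 3.04) in NP, and Cyp26b1 was at 2.55 FPKM (1.93 to 3.17) and 1.05 FPKM (0.686 to 1.42). Lpl, a lipase, was at 3.32 and 1.85 FPKM. Rbp4, the plasma carrier made by hepatocytes, was at 4285 and 4572 FPKM.

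Markers of the myofibroblast state were mostly too low to be tested. Of 19, 7 passed the filter, of which 2 were at least 1.5-fold higher and 1 (Postn) was lower, and the median was 0.14. Among all tested genes 3.6% were higher and 5.33% lower by this rule. Acta2, the smooth muscle actin that defines activated stellate cells, was at 0.452 FPKM (0.0896 to 0.814) in Control and 0.114 FPKM (0 to 0.311) in NP, with overlapping intervals. Tagln, another contractile marker, was listed at 0 in both. Among the higher genes was Cyr61, a secreted matrix-associated signal protein, at 6.73 FPKM (5.42 to 8.04) and 12.9 FPKM (11.2 to 14.6). Cyr61 is also made by cells other than stellate cells. Ctgf, a relative of Cyr61, was at 3.24 FPKM in Control and 3.68 in NP, with overlapping intervals. Postn, a matrix protein of fibroblasts, was at 3.44 FPKM (1.90 to 4.98) and 1.70 FPKM (1.16 to 2.23).

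Of 16 collagen chains other than the members, 8 passed, and 0 of them had separate intervals. Among all tested genes, 9.58% had an NP interval wholly below and 7.73% wholly above. On the log2(FPKM + 1) scale 0 of the 8 were past 1.5-fold in either direction, with a median ratio of -0.06. The matching shares of all tested genes were 3.6% higher and 5.33% lower. By plain FPKM 1 of the 8 was at least 1.5-fold lower, beside 7.42% of tested genes above 0 in both libraries. It was Col6a3, a chain of the microfibrillar type VI collagen. Its level was 1.54 FPKM (0.573 to 2.65) in Control and 0.835 FPKM in NP, with overlapping intervals. The basement membrane chains Col4a1 and Col4a2 were at 2.57 and 2.58 FPKM in Control and at 2.94 and 2.95 FPKM in NP. Col18a1, a basement membrane collagen that hepatocytes make, was at 181 FPKM (174 to 188) and 196 FPKM (188 to 203). Col5a1 and Col5a2, chains of the type V collagen found within type I fibrils, were under the filter at 0.818 and 0.0938 FPKM in Control and at 0.730 and 0.252 FPKM in NP.

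Of 20 genes that fold, process and cross-link collagen, 11 passed, and the median was 0.08. At least 1.5-fold higher were 2, and 0 were lower, beside 3.6% and 5.33% of all tested genes. P4ha1, a catalytic subunit of prolyl 4-hydroxylase, was at 4.57 FPKM (3.51 to 5.63) in Control and 8.39 FPKM (7.25 to 9.54) in NP. Pcolce, an enhancer of procollagen cleavage, was listed at 0 in Control and stood at 2.37 FPKM (1.58 to 3.17) in NP. Pcolce has no plain ratio. Its listed 0 came with OK status, and whether its reads were missed in Control was not tested. Serpinh1, the collagen-specific chaperone, was at 2.41 FPKM (1.70 to 3.12) and 1.65 FPKM (1.01 to 2.30). Plod3, a lysyl hydroxylase, was the 1 gene with an NP interval wholly below, at 10.8 and 7.81 FPKM. Wholly above were 3, counting Pcolce against its Control value of 0. Over all tested genes, 9.58% lay wholly below and 7.73% wholly above. P4hb and Ppib, also chaperones of general protein folding, were at 359 and 158 FPKM in Control and at 380 and 175 FPKM in NP.

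Of 34 matrix glycoproteins and proteoglycans, 16 passed, and 13 of these ratios were below 0, as were 54.4% over all tested genes. Their median was -0.09, and 1 gene was at least 1.5-fold higher and 1 lower, beside 3.6% and 5.33% of all tested genes. The higher one was Mgp, a matrix calcification inhibitor, at 0.956 FPKM (0.0351 to 2.02) and 2.43 FPKM (0.899 to 3.96), with overlapping intervals. The lower one was Sparcl1, a matricellular protein, at 2.31 FPKM (1.73 to 2.90) and 0.681 FPKM (0.380 to 0.982). Bgn, which encodes the decorin relative biglycan, was at 23.1 and 19.7 FPKM with overlapping intervals. Fn1 and Vtn, plasma and matrix proteins secreted by hepatocytes, were higher in NP, at 141 and 983 FPKM in Control and 174 and 1129 FPKM in NP. Ecm1, at 48.3 FPKM (44.1 to 52.5) and 38.9 FPKM (35.3 to 42.4), was the other gene with an interval wholly below. Over all tested genes, 9.58% had such an interval.

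Among matrix proteases and inhibitors, 7 of 19 passed, and the median was 0.07. At least 1.5-fold higher was 1, and 0 were lower, beside 3.6% and 5.33% of all tested genes. Timp2 and Timp3, relatives of Timp1, were at 3.01 and 2.68 FPKM in Control and at 2.94 and 2.26 FPKM in NP, with overlapping intervals, and Timp4 was listed at 0 in both. Mmp14, a membrane-bound collagenase, was at 12.7 FPKM (11.1 to 14.2) and 17.0 FPKM (15.3 to 18.8). Mmp2, the gelatinase it activates, was under the filter at 0.476 and 0.257 FPKM.

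In the TGF-beta pathway, the main fibrogenic signal to stellate cells, 16 of 22 genes passed, with a median ratio of -0.18. On the log2(FPKM + 1) scale 0 of the 16 passed 1.5-fold in either direction. By that rule 3.6% of all tested genes were higher and 5.33% lower. By plain FPKM 2 of the 16 were at least 1.5-fold lower, Smad6 and Skil, beside 7.42% of tested genes above 0 in both libraries. The ligand Tgfb1 was at 1.62 FPKM (1.02 to 2.21) in Control and 1.11 FPKM (0.652 to 1.57) in NP. The receptor Tgfbr1 was at 6.15 FPKM (5.42 to 6.87) and 4.68 FPKM (4.09 to 5.27), the 1 gene of the list with separate intervals. Over all tested genes, 9.58% had an NP interval wholly below and 7.73% wholly above. The inhibitory Smad genes differed from each other in direction, with Smad7 at 3.07 and 4.16 FPKM and Smad6 at 2.46 and 1.61 FPKM, both with overlapping intervals.

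Taking these 8 lists as 1 set of 172 genes, 94 passed the filter, of which 6.38% were at least 1.5-fold higher and 6.38% lower, beside the 3.6% and 5.33% of all tested genes. Intervals lay wholly above for 11.7% and wholly below for 13.8%, beside 7.73% and 9.58%. The lists hold genes chosen for the tissue, and nothing particular to them is read from these shares.

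**Figure D4:**
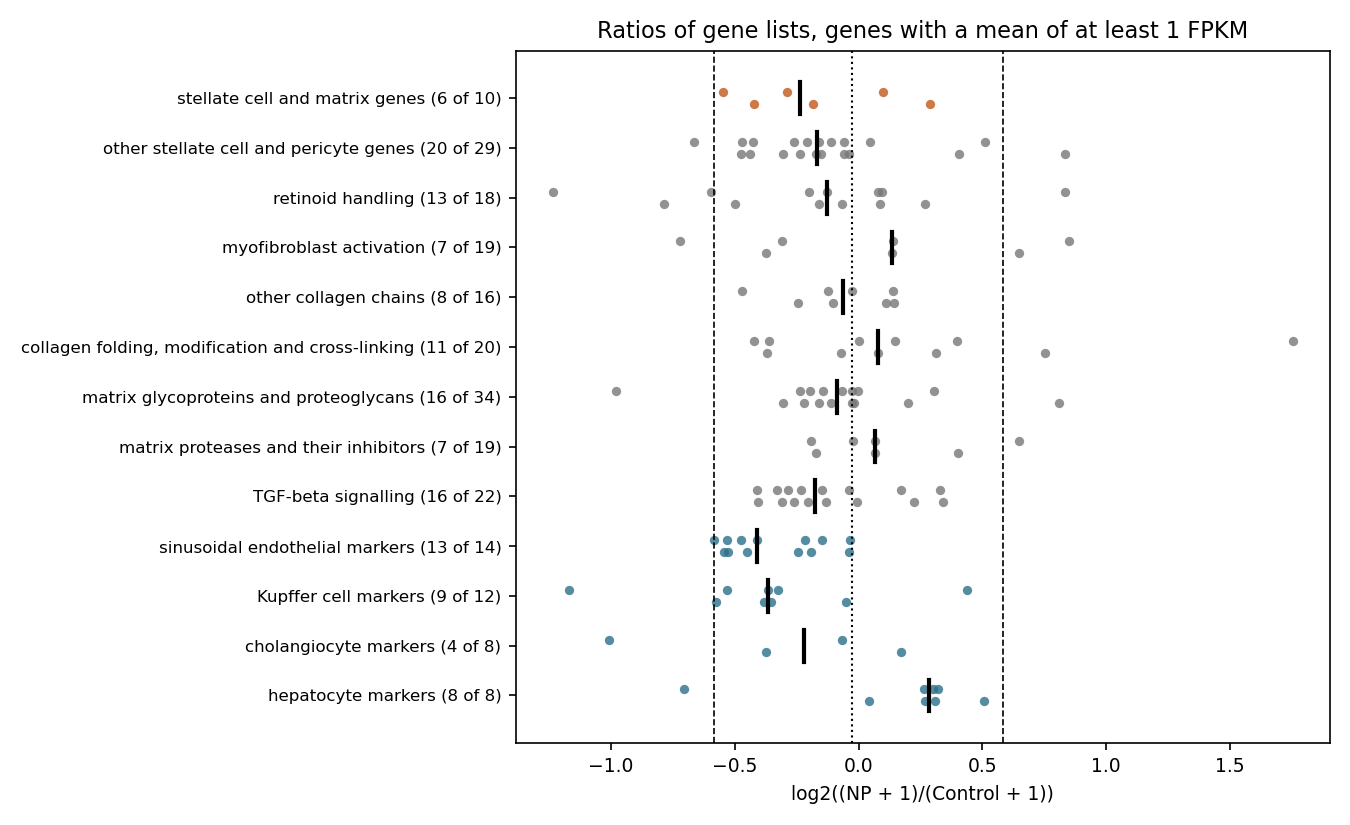
Ratio of NP to Control on the log2(FPKM + 1) scale for the tested genes of each list, with the number tested of the number listed. Each point is a gene, thick bars are list medians, dashed lines mark 1.5-fold and the dotted line is the median of all tested genes. The member and endothelial medians lie at -0.24 and -0.41 and the hepatocyte median at 0.29.

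Markers of other liver cells went in different directions between the libraries. Summed FPKM of 14 sinusoidal endothelial markers was 146 in Control and 112 in NP, and all 13 tested ones had a ratio below 0, with 4 intervals wholly below. That of 12 Kupffer cell markers was 58.8 and 38.1, and 8 of 9 tested ones had a ratio below 0, with 2 intervals wholly below. The share below 0 over all tested genes was 54.4%, and the share of intervals wholly below was 9.58%. Summed FPKM of 8 hepatocyte markers was 34802 and 46821, most of it Alb, with 7 of 8 ratios above 0. The ratio of Ass1 was below 0, at 67.5 FPKM in Control and 41.0 FPKM in NP, with separate intervals. The summed level of the 10 members was 104.5 and 85.7 FPKM, most of it Dcn. Portal fibroblasts also express Dcn and collagens, and their 10 markers summed to 4.401 and 3.91 FPKM, with Cd34 at 0 in both. The 1 marker past the filter, Entpd2, went against this sum, at 1.24 FPKM in Control and 2.44 FPKM in NP with overlapping intervals. The 7 smooth muscle markers summed to 1.99 and 1.12 FPKM with Tagln at 0, and the 5 mesothelial markers to 0.508 and 0.301 FPKM with Upk1b at 0, and none of either list passed. Cholangiocyte markers summed to 27.2 and 21.1 FPKM over 8 genes, of which 4 passed. Their ratios were below 0 for 3 and above for 1, Sox9, with 1 interval wholly below. Spp1, also in the myofibroblast list, made up most of that sum, at 15.1 and 11.4 FPKM. The part of these cell types in the lower Lrat, Rgs5 and Dcn values was not tested.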

How the data were processed

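Liver RNA-seq of 1 Control and 1 NP library was analysed, grouped by the treatment label. RNA was extracted with Trizol and prepared with an Illumina TruSeq kit, per the labels' protocols. The submitters' processing notes list TopHat2 2.1.0, Cufflinks 2.2.1.0 and build mm9, without settings. The authors deposited FPKM with a 95% interval for each row, and read coverage, a signal not scaled to library size. Each table held 87656 transcript rows and 31633 gene-span rows.

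Row FPKM was added up by gene identifier, and half-widths of rows above 0 were combined in quadrature. A gene at 0 therefore has no interval and was compared at 0. Start positions were converted to count from 1. Tested genes averaged 1 FPKM or more, had OK status, a longest row of 300 nt or more and no small RNA name. Ratios used a pseudocount of 1 FPKM and a size rule of 1.5-fold, with no test. Named genes were all members, up to 4 tested genes at each end of each list and 8 fixed partners of the members; other list genes named were picked after their values were seen. Some genes that this rule names are not reported here. The members and lists were chosen with earlier results of these data known. Sums and the size rule were tested on simulated data with 4-fold differences in genes averaging 5 FPKM or more. That check does not cover differences near 1.5-fold or lower genes, as most members are. With 1 ratio per gene, no likeness between genes was measured. Software was Python 3.11.15, pandas 2.3.3, numpy 2.4.6 and matplotlib 3.10.9.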

Additional observations from a re-analysis of the deposited data

How the results depend on the processing

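The number of members at least 1.5-fold lower, 0 as reported, was 1 with a pseudocount of 0.1 FPKM and 1 by plain FPKM (Lrat in both). It was 2 by plain FPKM without the filter, a setting chosen after seeing the data, with Des added. The number at least 1.5-fold higher was 0 in all settings run, and the median log2 ratio of the members ran from -0.42 with the highest row of each gene, where Col3a1 no longer passed the filter, to -0.18 without the filter. Scaling NP by 1.02 or 0.975 changed no count of members. Alternative ratios of single members were held against a half-width of the log2 ratio, derived from the FPKM intervals of both libraries. Of these ratios, 51 differed from the reported one by less than that half-width and 5 did not. The 5 were 4 of Lrat, between -1.06 and -0.91 with a smaller pseudocount or none, and Dcn at -0.54 with its highest row. Many of the 51 could not differ, because a change of filter leaves a ratio as it was, as does leaving out rows at 0. The plain FPKM ratios without the filter repeat those with it. The tally of 51 and 5 is therefore not a measure of how firm the ratios are. Col3a1 with its highest row, at -0.42 against the reported 0.29, was under the filter and was not counted. No paired analysis was possible because each group holds 1 library, and for the same reason no library could be left out. Which genes depth limited most was not compared.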

Other observations

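Adamts14, a procollagen N-proteinase with a mean under the filter, was at 0.500 FPKM (0.292 to 0.707) in Control and 1.33 FPKM (1.01 to 1.65) in NP, and was picked after its values were seen. Adamts2, another N-proteinase, was at 0.426 and 0.245 FPKM. Bmp1, the procollagen C-proteinase, was at 28.7 FPKM (26.5 to 30.8) and 35.9 FPKM (33.5 to 38.2). In 53 rows of the 10 members, 19 were above 0 in at least 1 library, and 4 of these were above 0 in 1 library only, in Dcn, Reln, Hand2 and Col1a1.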
